A study of Mus musculus with 2 samples.

Results

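Heat-shock chaperone genes encode proteins that hold, refold or assemble other proteins. The 10 genes described here were taken by their symbols from the 32286 features counted in each library. They fall into 6 inducible members (Hspa1a, Hspa1b, Dnajb1, Hsph1, Hspb1 and Hsp90aa1) and 4 constitutive members (Hspa8, Dnaja1, Hspd1 and Hspe1). All 10 were measured in the lungs of female BALB/c mice, 9 to 10 weeks old, that had received control media (called CM) or media conditioned by tumor (TCM) into a vein over 3 weeks. TCM is serum-free medium in which pieces of 4T1 mouse breast tumors had been cultured, pooled from several tumors, and CM is the same medium incubated without tumor. How many animals went into a library was not given in the sources used here. The lungs were dissociated to single cells with enzymes at body temperature and then kept on ice, by 1 protocol for both groups, and libraries were made with a 5′ droplet kit. Each group had 1 library, so no difference between CM and TCM could be set against the spread between animals, no p-value was computed, and every interval below is a 95% interval that covers counting error only.

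The cytosolic chaperone system is built around HSP70 proteins, which bind exposed hydrophobic stretches of unfolded proteins and release them in cycles of ATP hydrolysis. HSP40 proteins deliver the clients and start the hydrolysis, HSP110 proteins exchange the nucleotide, small heat-shock proteins hold aggregating proteins, and HSP90 finishes the folding of kinases and receptors. In resting cells heat shock factor 1 is held inactive, and upon heat or other proteotoxic stress it binds arrays of short GAA and TTC units in front of the inducible genes. Tissue dissociation is a known trigger of the same genes in single-cell preparations.

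The inducible HSP70 pair is shown first by its promoters, because the 2 genes are close copies in the transcript and in front of it. Hspa1a lies at chr17:34969190-34972156 and Hspa1b at chr17:34956436-34959238, both on the minus strand of mouse build GRCm38. The RefSeq promoter table of build GRCm38.p6 gave 13 windows for 8 of the 10 members, as some members had several RefSeq starts. Hspa8 and Hsp90aa1 had no window. The 250 bases before the start of each gene are printed 5′ to 3′ on the gene's strand, with GAANNTTC or TTCNNGAA in capitals. Both motifs read the same on both strands, and they can overlap each other. None of these 3 windows held an annotated exon.
Hspa1a, chr17:34972157-34972406: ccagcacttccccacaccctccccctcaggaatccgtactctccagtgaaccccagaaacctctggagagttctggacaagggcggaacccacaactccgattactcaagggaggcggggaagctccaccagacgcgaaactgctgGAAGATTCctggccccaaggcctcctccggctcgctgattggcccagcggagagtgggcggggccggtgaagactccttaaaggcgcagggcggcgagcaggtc
Hspa1b, chr17:34959239-34959488: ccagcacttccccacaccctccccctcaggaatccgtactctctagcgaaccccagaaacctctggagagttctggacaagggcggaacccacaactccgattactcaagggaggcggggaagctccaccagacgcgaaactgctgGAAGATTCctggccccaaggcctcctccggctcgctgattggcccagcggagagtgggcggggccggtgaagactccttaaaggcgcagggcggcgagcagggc
Hspb1, chr5:135887669-135887918: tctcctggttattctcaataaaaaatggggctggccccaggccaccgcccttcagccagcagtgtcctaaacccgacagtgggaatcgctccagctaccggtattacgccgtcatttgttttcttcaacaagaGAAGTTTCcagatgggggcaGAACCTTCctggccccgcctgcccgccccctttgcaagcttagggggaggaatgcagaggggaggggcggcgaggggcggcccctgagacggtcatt
The windows of Hspa1a and Hspa1b differed at 3 of 250 bases (98.8% identity), and each held 1 GAANNTTC match 104 bases before the start. Hspb1, on the plus strand at chr5:135887919-135889563, held 2 matches, 117 and 97 bases before the start. Either motif was found in 15.1% of the 32851 promoter windows of 300 bases in the table.

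Matches in 4 more members are shown as short sites, again with the matched letters in capitals. The mitochondrial pair shares 1 site, and Hsph1 and Dnaja1 each have 1 before a RefSeq start.
Hspd1, chr1:55088053-55088082, minus strand: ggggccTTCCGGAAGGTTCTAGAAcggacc
Hspe1, chr1:55088053-55088082, plus strand: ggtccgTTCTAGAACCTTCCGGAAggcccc
Hsph1, chr5:149636356-149636375, minus strand: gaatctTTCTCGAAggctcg
Dnaja1, chr4:40722338-40722357, plus strand: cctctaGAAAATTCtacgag
Hspd1 (chr1:55077835-55088243, minus strand) and Hspe1 (chr1:55088132-55091307, plus strand) are head-to-head neighbours. Their site is the same stretch of DNA read from opposite strands. It holds 4 alternating units and lies in an annotated exon of Hspd1. The Hspd1 window before the annotated gene start, chr1:55088244-55088493, held neither motif. A run of 3 or more alternating units was present in 0.603% of all windows and in windows of 3 members, Hspd1, Hspe1 and Hsph1 (chr5:149614287-149636376, minus strand). In Hsph1 that run lay after the start, and the printed site, in an annotated exon, held 2 units. The Dnaja1 site also lay in an annotated exon of its gene. The Dnaja1 windows at chr4:40722672-40722921 and chr4:40722680-40722929 held neither motif. By the annotated positions, the printed sites of Hspd1, Hsph1 and Dnaja1 lie inside these genes and precede other RefSeq starts. The windows of Dnajb1 (chr8:83608193-83612653, plus strand) held neither motif. Dnaja1 lies at chr4:40722150-40737149, Hspa8 at chr9:40800984-40810087, both on the plus strand, and Hsp90aa1 at chr12:110690605-110702728 on the minus strand. A match describes letters and is not evidence of binding.

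Copies also bear on the counts. Of all windows of 90 bases in the longest coding transcript, 50.9% in Hspa1a and 52.3% in Hspa1b were found unchanged in a transcript of the partner or of Hspa1l. For Hspa8 the share found in other annotated genes was 64.7%, for Hsp90aa1 50.03% and for Hspb1 44.6%. It was 29.4% for Hspd1, 21.6% for Hspe1 and 15.5% for Dnaja1, while Dnajb1 and Hsph1 shared none. Because the libraries were made with a 5′ kit, the first 500 bases were also taken alone. There the share was 84.2% for Hspb1, 49.6% for Hspa1a and for Hspa1b, 31.4% for Hsp90aa1 and 23.4% for Dnaja1. It was 16.3% for Hspe1, 5.84% for Hspa8 and 3.65% for Hspd1. How reads that fit several genes were counted was not given in the sources used here, so the split between Hspa1a and Hspa1b is uncertain and their sum is given beside them.

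Unique molecular identifiers (UMIs) numbered 31944151 in the CM library and 36648719 in that of TCM. Of the droplets that passed the filters, CM held 7988 cells (median depth 2085 UMIs) and TCM 7707 (median depth 2346 UMIs). Each cell was placed in a class by marker genes, and the 13 classes that reached 100 cells in both libraries are reported. They took in 64.5% of CM cells and 71.0% of TCM cells. Their names carry "-like" because they rest on markers alone. Levels are UMIs per 100000 UMIs of all cells of a class in a library (CP100k). They count tagged transcripts and are not scaled to gene length, so genes are compared with themselves across classes and libraries. Fewer expressing cells and less RNA per cell cannot be told apart in such a sum. The depth of 2 classes differed between the libraries by a wide margin, with median UMIs of 2580 in CM and 5790.5 in TCM for AT2-like cells and of 2769 and 4724 for smooth muscle-like cells. The libraries shared 93 cell barcodes, 1.16% of those in CM and 1.21% of those in TCM.

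The chaperone genes were lower in the TCM library in most cell classes. Of the 130 ratios of 10 genes in 13 classes, 111 were below 0 on the log2 scale, 72 had an interval wholly below 0 and 5 had one wholly above 0. Their median was -0.34, while the median over all genes with at least 50 UMIs lay between -0.10 and 0.10 in every class. The share of those genes below 0 lay between 36.3% and 55.8% by class. The share of them with an interval below 0 was not computed. Among inducible members 64 of 78 ratios were below 0, and among constitutive members 47 of 52. Over all kept cells together, all 10 members were lower in TCM, from -0.65 for Hspa1a to -0.25 for Hspb1, with -0.26 for Hspa8. In that pool 59.97% of all genes with at least 50 UMIs were below 0, with a median of -0.055. Past a fold of 1.5, 1 of the 10 was lower, Hspa1a, against a background of 4.64% of all genes. The pool also mixes classes whose shares differed. Neutrophil-like cells, the lowest class for most members in CM, made up 2.33% of CM cells and 17.27% of TCM cells. The part of these shares in the pooled ratios was not tested.

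**Figure D1:**
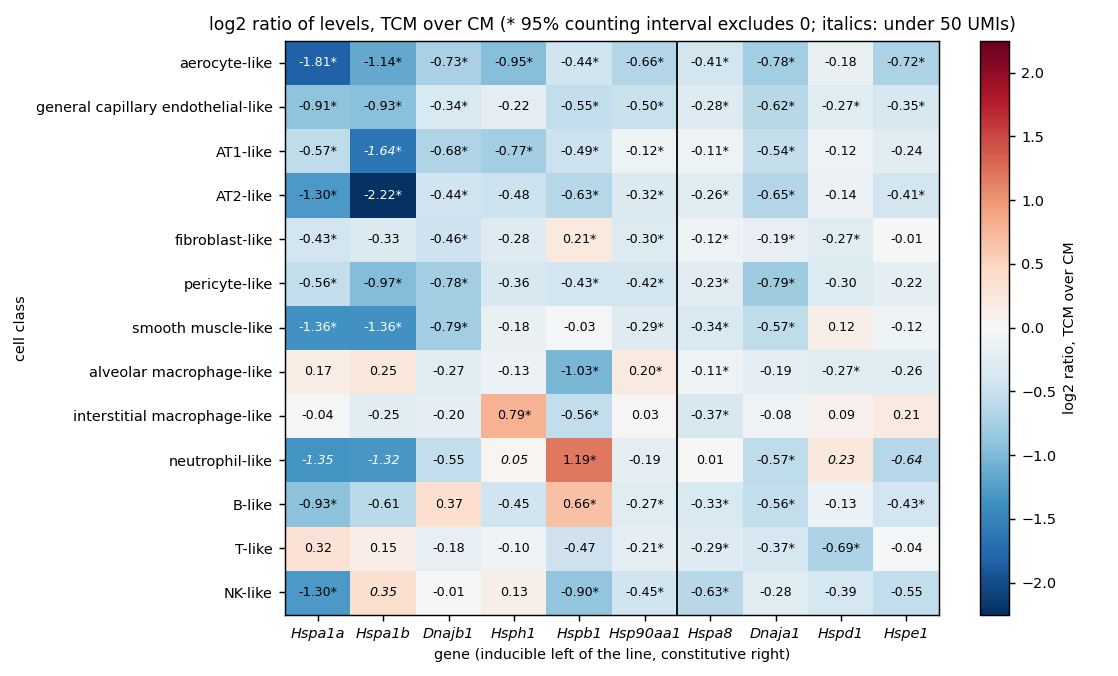
Log2 ratio of the level in the TCM library over the level in the CM library for each of the 10 chaperone genes (columns) in 13 cell classes (rows), from blue (lower in TCM) to red (higher in TCM). A star marks a 95% counting interval that excludes 0 and italics mark genes with under 50 UMIs. Blue fills most of the grid, deepest for Hspa1a and Hspa1b, and the 5 starred red cells are Hspb1 in fibroblast-like, B-like and neutrophil-like cells, Hsph1 in interstitial macrophage-like cells and Hsp90aa1 in alveolar macrophage-like cells.

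Hspa1a encodes the stress-inducible HSP70 itself. Its CM level was highest in smooth muscle-like cells at 81.8 CP100k, followed by interstitial macrophage-like cells at 65.2 and aerocyte-like cells at 40.7. In TCM the order of these classes changed, with 63.3 CP100k in interstitial macrophage-like, 31.9 in smooth muscle-like and 11.6 in aerocyte-like cells. Aerocytes are the capillary endothelial cells that face the air space in gas exchange. Their Hspa1a level was 301 UMIs from 184 CM cells and 141 UMIs from 224 TCM cells, which put the log2 ratio at -1.81 (interval -2.11 to -1.52). Smooth muscle-like cells had a ratio of -1.36 (interval -1.56 to -1.16), with 737 UMIs in CM and 301 in TCM. In AT2-like cells, which make surfactant, Hspa1a was 15.4 CP100k in CM and 6.24 in TCM, a ratio of -1.30 (interval -1.62 to -0.99).

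General capillary endothelial-like cells stood at 19.6 CP100k of Hspa1a in CM and 10.4 in TCM, a ratio of -0.91. Fibroblast-like cells had 25.2 and 18.7, and pericyte-like cells 22.4 and 15.3, ratios of -0.43 and -0.56. AT1-like cells, the flat epithelium of the alveolus, were low in both libraries with 5.23 and 3.53. The lower TCM level was thus seen in all 7 epithelial, endothelial and mesenchymal classes, each with an interval below 0. In leukocytes the picture was mixed. B-like cells had 10.2 CP100k in CM and 5.35 in TCM, and NK-like cells 10.7 and 4.36, while T-like cells had 7.76 and 9.66, a ratio of 0.32 (interval -0.06 to 0.69), and alveolar macrophage-like cells 6.13 and 6.89, a ratio of 0.17 (interval -0.26 to 0.61). Interstitial macrophage-like cells had nearly the same level in both libraries, with a ratio of -0.04 (interval -0.26 to 0.18). Neutrophil-like cells were the lowest of all with 7 UMIs in CM and 24 in TCM, too few for a comparison.

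Hspa1b, the near-identical partner gene, had fewer UMIs than Hspa1a in every class but NK-like TCM cells. It was lower in TCM in 10 of 13 classes, with 6 intervals below 0. Its level was 19.1 CP100k in CM and 7.42 in TCM in smooth muscle-like cells, a ratio of -1.36, and 4.39 against 0.941 in AT2-like cells, a ratio of -2.22 (interval -3.03 to -1.49). Interstitial macrophage-like cells held 19.0 and 15.9. The pair's sum was lower in TCM in 11 of 13 classes, with a median ratio of -0.77 and 9 intervals below 0, from -1.70 in aerocyte-like cells to 0.26 in T-like cells. Of those intervals, that of neutrophil-like cells rests on only 9 UMIs in CM and 31 in TCM.

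**Figure D2:**
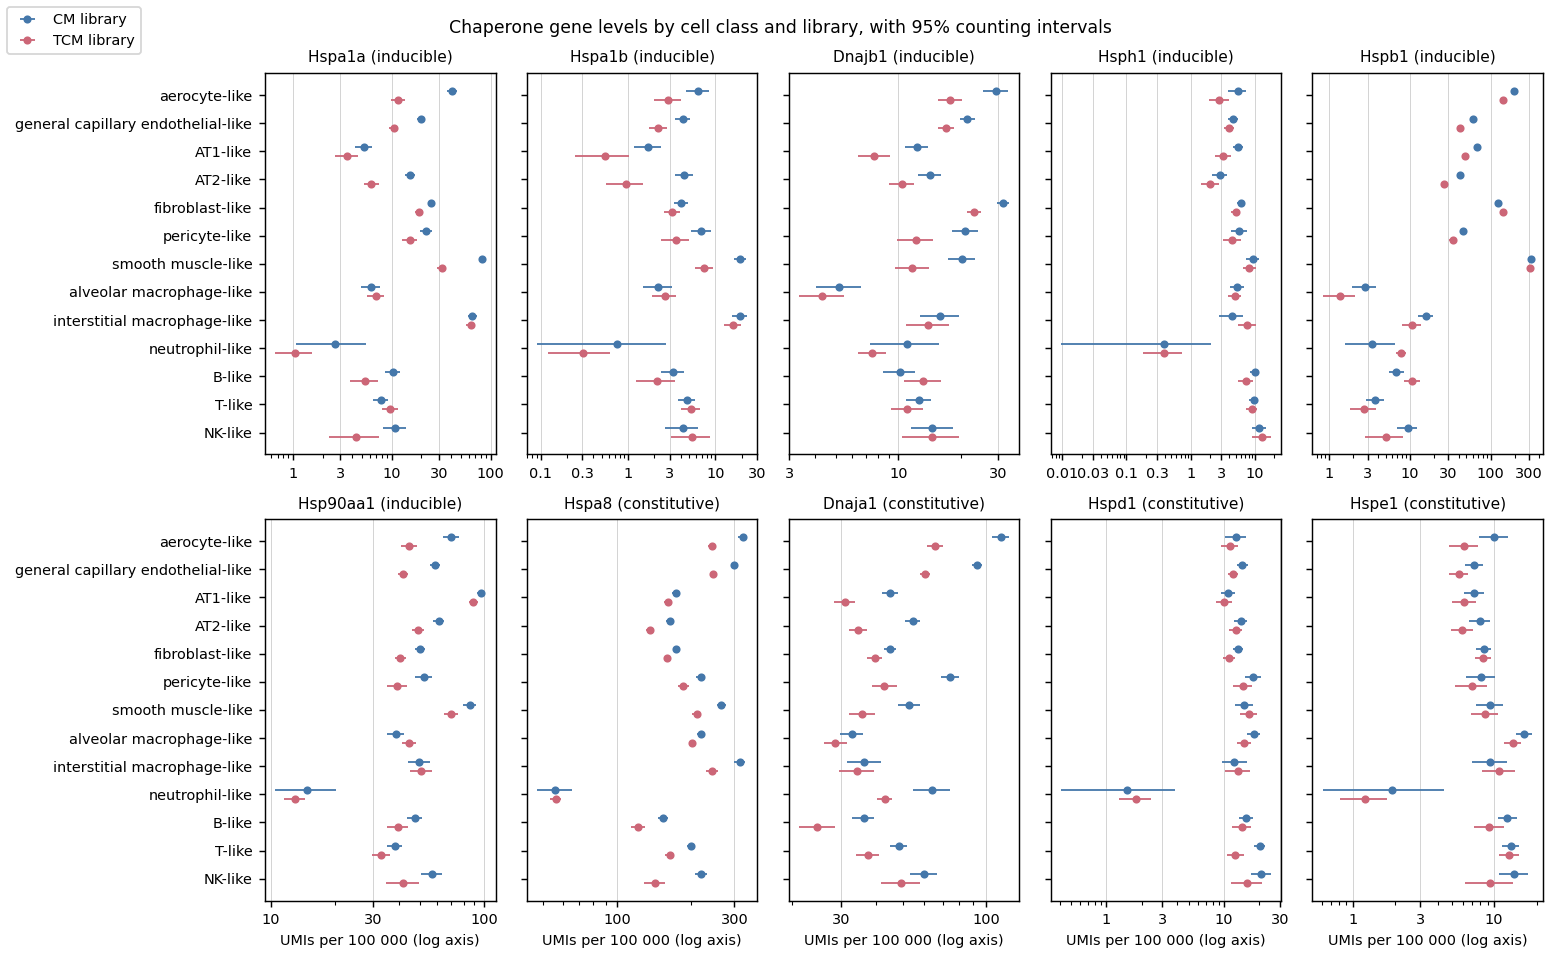
Level of each chaperone gene in UMIs per 100000 UMIs (log axis) in 13 cell classes of the CM library (blue) and the TCM library (red), with exact Poisson 95% intervals. The red points lie left of the blue ones in most rows of most panels, for example for Hspa1a in aerocyte-like and smooth muscle-like cells and for Hspa1b in AT2-like cells, and neutrophil-like cells are lowest for 7 of the 10 genes in CM.

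The share of cells with an Hspa1a UMI was compared at equal depth, with each cell thinned to 1000 UMIs and shallower cells left out. In smooth muscle-like cells it was 37.2% of 199 CM cells and 23.2% of 168 TCM cells. Without thinning the shares were 55.4% and 54.2%, at median depths of 2769 and 4724 UMIs, so that the libraries differed at equal depth and hardly without it. In aerocyte-like cells the thinned share was 29.1% (interval 22.3 to 36.7%) in CM and 6.60% (interval 3.66 to 10.8%) in TCM, and unthinned 51.1% and 22.3% at 3121.5 and 4380 UMIs. In AT2-like cells it was 16.3% and 4.88%, and unthinned 26.4% and 15.5%. Interstitial macrophage-like cells, at 33.0% and 30.8% (unthinned 54.6% and 47.5% at 4534 and 4372.5 UMIs), and T-like cells, at 7.44% and 9.32% (unthinned 11.1% and 13.4% at 2470 and 2402 UMIs), did not show this. The lowest class, neutrophil-like cells, had 2.19% and 0.751% (unthinned 1.61% and 1.503% at 1313 and 1603 UMIs), the level against which droplet background has to be read. The share was lower in TCM in 11 of 13 classes, the exceptions being T-like and alveolar macrophage-like cells.

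**Figure D3:**
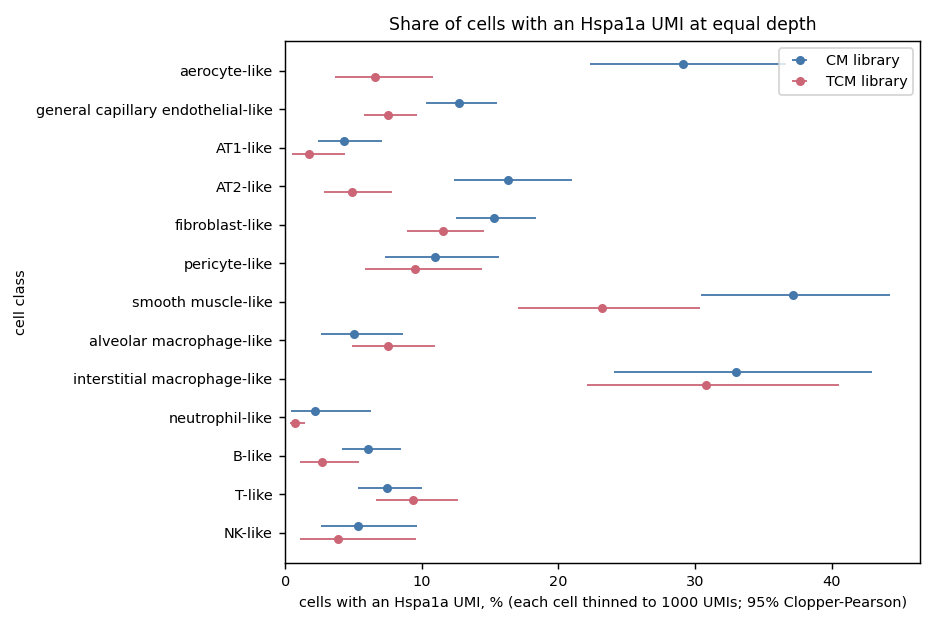
Share of cells with at least 1 Hspa1a UMI after each cell was thinned to 1000 UMIs, in percent with Clopper-Pearson 95% intervals, for 13 cell classes of the CM library (blue) and the TCM library (red). The intervals of the libraries lie apart in aerocyte-like cells (29.1% and 6.60%) and AT2-like cells (16.3% and 4.88%), and the libraries lie close together in interstitial macrophage-like cells (33.0% and 30.8%).

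Much of the HSP70 signal came from few cells. At 1000 UMIs per cell, 21.1% of the smooth muscle-like CM cells held 2 or more Hspa1a or Hspa1b UMIs, and they carried 82.0% of the pair's UMIs in that class. In the TCM library the share of such cells was 8.93% with 59.2% of the UMIs. In aerocyte-like cells, 8.48% of CM cells and 1.42% of TCM cells held 2 or more such UMIs. In interstitial macrophage-like cells 20.4% of CM cells and 16.3% of TCM cells were of this kind. The highest smooth muscle-like CM cell held 34 of the pair's UMIs among its 1000, and before thinning 1 cell held 129 of the class's 737 Hspa1a UMIs in CM. Without the top 1% of cells in each library, the Hspa1a ratio of smooth muscle-like cells was -0.96 instead of -1.36.

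Dnajb1 and Dnaja1 encode HSP40 proteins, the partners that hand clients to HSP70. Dnajb1, the inducible one, was highest in fibroblast-like cells with 31.8 CP100k in CM and 23.1 in TCM, a ratio of -0.46 (interval -0.61 to -0.32). It was lower in TCM in 12 of 13 classes, with 7 intervals below 0 and the lowest ratio in smooth muscle-like cells at -0.79 (20.1 and 11.7 CP100k). Pericyte-like cells followed with 20.8 and 12.1 (-0.78), aerocyte-like cells with 29.3 and 17.7 (-0.73) and AT1-like cells with 12.3 and 7.66 (-0.68). B-like cells were the exception at 10.1 and 13.1, with a ratio of 0.37 whose interval reached from -0.02 to 0.76.

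Dnaja1, expressed at rest, was lower in TCM in all 13 classes, the only member of which this was true. Its median ratio was -0.56, and 10 intervals lay below 0. The CM level was highest in aerocyte-like cells at 113 CP100k, against 65.5 in TCM, a ratio of -0.78 (interval -0.93 to -0.64). General capillary endothelial-like cells had 92.9 and 60.3 (-0.62), pericyte-like cells 74.3 and 42.9 (-0.79) and AT2-like cells 54.3 and 34.6 (-0.65). Neutrophil-like cells, which had next to no Hspa1a, kept 63.8 CP100k of Dnaja1 in CM and 43.1 in TCM (-0.57). The smallest difference was in interstitial macrophage-like cells, with 36.3 and 34.3, a ratio of -0.08 (interval -0.38 to 0.21).

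Hsph1 encodes HSP110, the nucleotide exchange factor of HSP70. It was a low gene, with at most 11.7 CP100k in CM (NK-like cells) and 12.8 in TCM (the same class). Ratios were below 0 in 10 of 13 classes, with intervals below 0 in 2, aerocyte-like cells at -0.95 (5.41 and 2.79 CP100k) and AT1-like cells at -0.77 (5.48 and 3.22). Interstitial macrophage-like cells went the other way with 24 UMIs in CM and 40 in TCM, 4.33 and 7.49 CP100k, a ratio of 0.79 (interval 0.02 to 1.58). That ratio rests on few UMIs and its interval nearly reached 0.

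Hspb1 encodes the small heat-shock protein HSP25, which also binds actin in muscle. It differed most among classes. Smooth muscle-like cells had 317 CP100k in CM and 310 in TCM, aerocyte-like cells 193 and 142, and fibroblast-like cells 124 and 144. AT1-like cells had 66.8 and 47.7, and general capillary endothelial-like cells 60.8 and 41.4. At the low end were alveolar macrophage-like cells with 2.76 and 1.35 and T-like cells with 3.73 and 2.69. Free RNA held 42.5 CP100k of Hspb1 in CM and 32.7 in TCM, so the leukocyte levels were below the level in the free RNA itself.

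Between the libraries Hspb1 was lower in TCM in 10 of 13 classes and was the member with the most intervals above 0, 3. The ratio was -0.63 in AT2-like (interval -0.80 to -0.47), -0.55 in general capillary endothelial-like, -0.49 in AT1-like and -0.44 in aerocyte-like cells. Smooth muscle-like cells did not differ beyond counting error (-0.03, interval -0.11 to 0.04). Fibroblast-like cells were higher in TCM at 0.21 (interval 0.15 to 0.28), on 3836 and 3801 UMIs. B-like cells were higher at 0.66 (interval 0.21 to 1.11). The share of B-like cells with an Hspb1 UMI was 8.72% in CM and 8.91% in TCM, and 10 cells held 72.5% of the 80 TCM UMIs. In CM, 10 cells held 41.6% of 89 UMIs. Neutrophil-like cells were higher at 1.19 (interval 0.23 to 2.34), with 9 UMIs from 186 CM cells and 179 from 1331 TCM cells. That is 0.0484 and 0.134 UMIs a cell, where the free RNA estimate alone gives 0.0744 in CM and 0.0768 in TCM, so the CM level lay within background and subtraction left no ratio. In NK-like cells the ratio was -0.90, but 1 CM cell held 24 of the 49 UMIs, and leaving out cells with high doublet scores turned the ratio to 0.83.

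Hsp90aa1 encodes the inducible cytosolic HSP90. It was highest in AT1-like cells with 96.6 CP100k in CM and 89.0 in TCM and lowest in neutrophil-like cells with 14.7 and 12.9. It was lower in TCM in 11 of 13 classes with 10 intervals below 0, most in aerocyte-like cells at -0.66 (70.2 and 44.4 CP100k) and general capillary endothelial-like cells at -0.50 (58.7 and 41.5). In smooth muscle-like cells it was 85.7 and 70.0 (-0.29). Alveolar macrophage-like cells were higher in TCM, 38.4 against 44.2, a ratio of 0.20 (interval 0.03 to 0.37). In that class the median of all genes was itself at 0.10.

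Hspa8 encodes the constitutive HSP70, HSC70, which folds new proteins and uncoats clathrin vesicles. It was the most counted member, at 325 CP100k in CM and 244 in TCM in aerocyte-like cells, 315 and 244 in interstitial macrophage-like cells and 299 and 246 in general capillary endothelial-like cells. Neutrophil-like cells had the least, 55.9 and 56.2. In the other 12 classes the level was lower in TCM, each with an interval below 0. The ratios were small, with a median of -0.28, from -0.63 in NK-like cells (219 and 142 CP100k) to -0.11 in AT1-like and alveolar macrophage-like cells. The share of cells with an Hspa8 UMI at 1000 UMIs was 93.3% and 84.9% in aerocyte-like cells (unthinned 96.7% and 96.0%) and 41.6% and 39.8% in neutrophil-like cells (unthinned 48.4% and 54.8%).

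Hspd1 and Hspe1 encode the mitochondrial chaperonin HSP60 and its lid HSP10. Their levels were even across classes. Hspd1 lay between 10.9 and 20.6 CP100k in CM outside neutrophil-like cells, and Hspe1 between 7.18 and 16.3. Neutrophil-like cells had 4 Hspd1 and 5 Hspe1 UMIs in CM and 41 and 28 in TCM. Hspd1 was lower in TCM in 10 of 13 classes with 4 intervals below 0, most in T-like cells at -0.69 (20.3 and 12.5 CP100k). Hspe1 was lower in 12 of 13, also with 4 intervals below 0, most in aerocyte-like cells at -0.72 (10.0 and 6.08). In interstitial macrophage-like cells both were above 0, at 0.09 and 0.21, with intervals that held 0.

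The sums of the lists addressed whether the inducible genes differed more than the constitutive ones. The inducible sum was lower in TCM in 12 of 13 classes with 8 intervals below 0, from -0.64 in aerocyte-like to 0.10 in alveolar macrophage-like cells. The constitutive sum was lower in all 13, each interval below 0, from -0.53 in NK-like to -0.14 in fibroblast-like cells. In smooth muscle-like cells the inducible sum was at -0.28, and at 0.06 when levels were averaged over cells instead. The ratio of inducible to constitutive UMIs, in which the total of the class cancels, had no common direction. It was lower in TCM with an interval below 0 in 5 classes, AT2-like (-0.21), general capillary endothelial-like (-0.19), pericyte-like (-0.16), aerocyte-like (-0.14) and AT1-like (-0.13). After thinning to 1000 UMIs the AT1-like and pericyte-like ratios were at 0.053 and 0.064. It was higher with an interval above 0 in 5 others, interstitial macrophage-like (0.24), alveolar macrophage-like (0.23), T-like (0.20), B-like (0.19) and fibroblast-like (0.09). In these sums a gene weighs by its UMIs. In AT1-like CM cells Hsp90aa1 and Hspb1 held 1921 and 1329 of 3741 inducible UMIs, and Hspa8 3457 of 4713 constitutive UMIs. With Hsp90aa1 and Hspb1 counted as constitutive, the ratio was below 0 in 8 classes instead of 5, and the fibroblast-like ratio was -0.38.

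The HSP70 pair set against its constitutive relative gave a wider spread. Per 100 Hspa8 UMIs, aerocyte-like cells held 14.5 Hspa1a or Hspa1b UMIs in CM against 5.93 in TCM (log2 ratio -1.29, interval -1.56 to -1.02). AT2-like cells held 12.04 and 5.26, and smooth muscle-like cells 37.9 and 18.7. The ratio was lower in TCM in 9 of 13 classes, all with intervals below 0. Of these, the ratio of neutrophil-like cells (-1.35) rests on only 9 UMIs of the pair in CM. The ratio was higher in T-like cells, at 6.23 and 9.10 per 100 (0.55, interval 0.24 to 0.85), and in interstitial macrophage-like cells, at 26.7 and 32.4 (0.28, interval 0.07 to 0.50). In fibroblast-like cells the 4 other inducible members together did not differ (0.00, interval -0.05 to 0.05), with Hspb1 the largest part of that sum, while the pair was at -0.41.

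**Figure D4:**
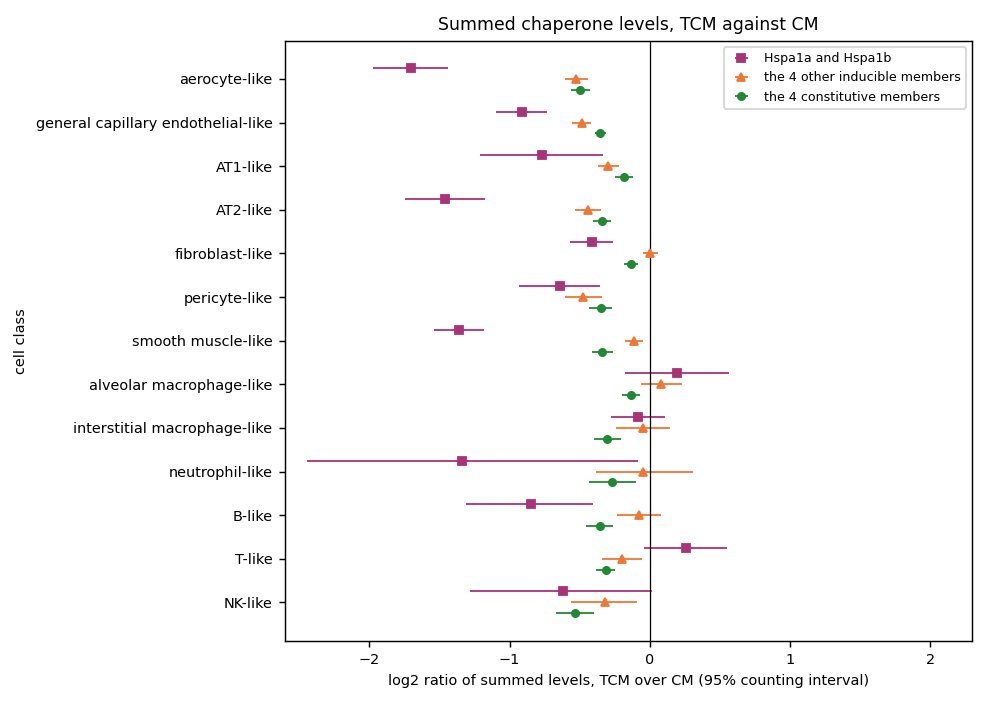
Log2 ratio of summed levels, TCM over CM, in 13 cell classes for Hspa1a with Hspa1b (squares), the 4 other inducible members (triangles) and the 4 constitutive members (circles), with 95% counting intervals. The circles all lie left of 0 between -0.53 and -0.14, while the squares reach from -1.70 in aerocyte-like cells to 0.26 in T-like cells.

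Read against all genes, the share of members past a fold varied by class. A gene was counted as lower where its TCM level was at least 1.5-fold below the CM level, among genes with at least 50 UMIs in a class. In aerocyte-like cells 7 of 10 members were lower, against 3.83% of all genes, and in AT2-like cells 4 of 10, against 8.23%. General capillary endothelial-like cells had 3 of 10 (background 2.36%), pericyte-like cells 3 of 10 (3.71%) and smooth muscle-like cells 3 of 10 (4.32%). AT1-like cells had 2 of 9 (3.91%), and fibroblast-like cells none of 10 (3.28%).

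Leukocyte classes also varied in the count of such members. NK-like cells had 3 of 9 (Hspa1a, Hspb1 and Hspa8, background 5.04%), B-like cells 2 of 10 (6.69%), T-like cells 1 of 10 (Hspd1, 2.87%) and alveolar macrophage-like cells 1 of 10 (Hspb1, 1.71%). The last rests on 0.136 Hspb1 UMIs a cell in CM and 0.0646 in TCM, the latter under the 0.0768 given by free RNA, and subtraction left no ratio. Interstitial macrophage-like cells had none of 10 (5.91%) and neutrophil-like cells none of 5 (20.9%). In the other direction, 1 member passed the fold in each of 3 classes: Hspb1 in B-like cells (background 4.45%), Hsph1 in interstitial macrophage-like cells (6.01%) and Hspb1 in neutrophil-like cells (17.3%). In all, 29 of 123 pairs of gene and class were lower by the fold and 3 were higher. Of the 29, 26 stayed below 0 under every alternative of processing that gave a value, and the 3 higher ones stayed above 0. The exceptions were Hspb1 in NK-like cells and Hspa1b in aerocyte-like and pericyte-like cells, the last at 0.74 with cells grouped by Leiden clusters.

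Other genes of the same systems had medians nearer to 0. The list of 20 regulators and further cytosolic heat-shock targets gave 201 pairs of gene and class with at least 50 UMIs, none of them from Hsf2. Of these pairs 17 were lower by the fold and 2 higher. Over all genes, 4.97% of the pairs were lower and 5.45% higher, against 8.46% and 0.995% in this list. Their median over classes was -0.08. Cacybp was lower in TCM in all 13 classes (median -0.44), and Chordc1, which binds HSP90, in 10 of 12 (median -0.38). Hsf1, the factor itself, was 3.76 CP100k in CM and 3.43 in TCM over all kept cells. Among cytosolic paralogs and co-chaperones 6 of 139 pairs (4.32%) were lower and 1 higher (median -0.06). Hsp90ab1, the constitutive HSP90, was lower in all 13 classes, but never by the fold (median -0.30).

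Of the TRiC chaperonin subunits, which fold actin and tubulin, 3 of 101 pairs (2.97%) were lower and 0 higher (median -0.10). Mitochondrial chaperones other than the members had 2 of 68 (2.94%) lower and 1 higher (median -0.03). The endoplasmic reticulum chaperones, which answer to another stress pathway, lay on the other side. Of 175 pairs 0 were lower and 6 (3.43%) higher, the latter under the share over all genes, 48 were below 0, and the class medians had a median of 0.12. Hspa5, the endoplasmic reticulum HSP70, was 62.4 CP100k in CM and 69.1 in TCM over all kept cells, a ratio of 0.15 (interval 0.12 to 0.18). Immediate early genes, which cell dissociation also induces, had a median of 0.00, with 17 of 206 pairs (8.25%) lower, 10 of these in neutrophil-like cells, and 9 (4.37%) higher.

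**Figure D5:**
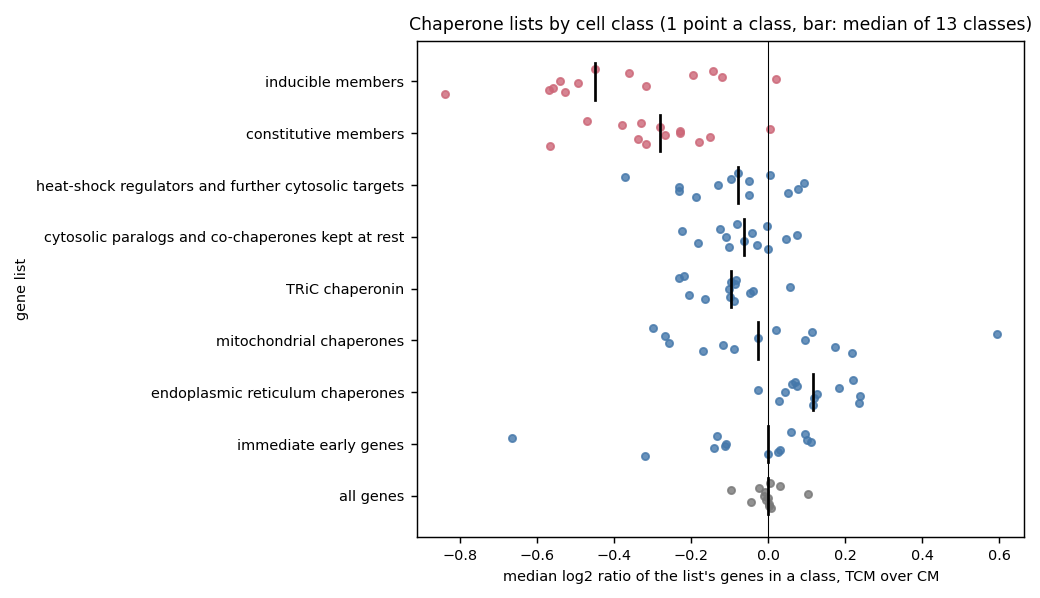
Median log2 ratio, TCM over CM, of the genes of each list in each of 13 cell classes (1 point a class, with a bar at the median of the classes), for genes with at least 50 UMIs. The chaperone members (red) lie mostly left of 0, the endoplasmic reticulum chaperones (blue) lie right of 0 in 12 of 13 classes, and all genes (grey) lie between -0.10 and 0.10.

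Within classes the inducible genes were found in the same cells more often than their frequencies gave. At 1000 UMIs per cell, 207 cells held both Dnajb1 and an HSP70 pair UMI, where 136 were given by the product of the shares in each class and library, a ratio of 1.52. The ratio was 1.57 for Hsph1, 1.28 for Hsp90aa1 and 1.26 for Hspb1. It was 1.14 for Dnaja1, 1.13 for Hspe1, 1.06 for Hspa8 and 1.01 for Hspd1. A gene found in most cells, such as Hspa8, cannot reach a high ratio, so these ratios do not rank the genes. Of 23 sets of class and library with at least 10 cells holding a pair UMI, these cells had the higher share of Dnajb1 in 19. For Hsph1, Hspb1 and Hsp90aa1 it was 18 each. For Dnaja1 it was 17, for Hspa8 15, for Hspe1 11 and for Hspd1 10. Depth was equal in this count, but cells within a class were not otherwise matched.

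Across the 26 points of class and library, the genes outside the members with the pattern most like the HSP70 pair were Prxl2b (Pearson r 0.80), Trim47 (0.80), 2610507B11Rik (0.75), Blmh (0.74) and Ckb (0.73), out of 7562 genes. Among members Hspa8 was closest at 0.76, and Dnaja1 farthest at 0.22. Over the cells within a class the highest mean correlations were those of Jun (0.25), Fos (0.24), Egr1 (0.22), Atf3 (0.20) and Junb (0.20), beside 0.19 for Dnajb1. The points share the libraries and the cells share depth, and in counts this sparse correlations of that size describe no more than a tendency.

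Free RNA, taken from droplets of at most 50 UMIs, moved with the libraries as well. All 10 members had a lower level in the free RNA of TCM than in that of CM, with an interval below 0 for Hspb1 (-0.38), Dnaja1 (-0.46) and Hspe1 (-0.71). Its amount was estimated as 175 UMIs a cell for CM and 235 for TCM, as medians over genes. Single genes gave 147 to 190 in CM and 201 to 541 in TCM, so the TCM estimate is less certain. The medians give 0.0191 and 0.0174 Hspa1a UMIs a cell, against 2.96 and 1.70 measured per smooth muscle-like cell. In neutrophil-like cells 0.0376 and 0.0180 were measured, the TCM value at the free RNA level. Hspb1 in T-like cells, at 0.0952 and 0.0650 a cell, was also near the free RNA estimate of 0.0744 and 0.0768, and subtraction left no ratio. The part of free RNA in the ratios was not tested beyond subtraction, which left the inducible sum lower in 12 classes and the constitutive sum in all 13.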

How the data were processed

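Droplet single-cell RNA libraries from whole lung were analysed, 1 per group. The authors mapped reads with Cell Ranger to mouse genome mm10 (GRCm38.p6) and deposited unfiltered UMI counts per gene and barcode, and they used Seurat downstream. Tool versions were not given in the sources used here. Droplets with at least 500 UMIs, at least 200 genes and at most 10% mitochondrial UMIs were kept. Each cell was scored on marker lists and placed in a class where the score was at least 0.5, led the next class by 0.5 and rested on at least 3 markers. The scoring rule and the genes behind the free RNA estimate were chosen after seeing the data. Within 0.1 of the required lead lay 509 CM (6.37%) and 437 TCM (5.67%) cells, and 25.8% and 19.1% of cells had no class. Another 15 classes fell below the cell minimum. Doublets were kept in the main values.

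UMIs were summed over the cells of a class and divided by all their UMIs. Levels have exact Poisson intervals, ratios conditional binomial intervals and shares Clopper-Pearson intervals, all at 95% and covering counting error only. All 10 members are named by rule, and the genes most like the HSP70 pair are the 5 with the highest correlation among genes at 5 CP100k or more. The members and lists were chosen with earlier results of these data known. The ratio step was tested on simulated counts drawn for each gene from a Poisson distribution, which the intervals also assume. UMIs gathered in few cells were not simulated, so the test cannot show whether the intervals are wide enough there. Python 3.11.15 was used with numpy 2.4.6, scipy 1.17.1, scikit-learn 1.9.0, leidenalg 0.10.2 and matplotlib 3.10.9. Genes were placed with GENCODE annotation and promoters taken from RefSeq.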

Additional observations from a re-analysis of the deposited data

Results flagged for a closer look

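In 5 pairs of gene and class the interval of the log2 ratio lay above 0 while the same gene had intervals below 0 in other classes. These were Hspb1 in neutrophil-like (1.19), B-like (0.66) and fibroblast-like cells (0.21), Hsph1 in interstitial macrophage-like cells (0.79) and Hsp90aa1 in alveolar macrophage-like cells (0.20). With 1 library a group the differences between classes were not tested.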

How the results depend on the processing

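The inducible sum was lower in TCM in 9 (levels averaged over cells) to 13 of 13 classes and the constitutive sum in 13 under every alternative run. The inducible to constitutive ratio was below 0 in 5 classes, in 3 after thinning to 1000 UMIs and in 8 with Hsp90aa1 and Hspb1 counted as constitutive. Intervals were not computed for the alternatives. Of the ratios of gene and class, 96 (thinned, of 127) to 112 lay below 0. The count lower by 1.5-fold was 29 of 123 pairs. It became 64 of 123 at a less strict fold and 8 of 123 at 2-fold. With at least 200 UMIs it was 17 of 86, a smaller set of pairs. The share over all genes was not computed at these other settings, so these counts were not set against a background. Signs were followed for genes past the 1.5-fold and for sums and inducible to constitutive ratios whose interval excluded 0. Ratios of other genes changed sign as well. Examples are Dnajb1 in general capillary endothelial-like cells (-0.34, highest alternative 0.06) and Hspb1 in pericyte-like cells (-0.43, highest alternative 0.26). Followed values that changed sign were, for levels averaged over cells, the inducible to constitutive ratio in AT1-like cells (0.061), Hspb1 in NK-like cells (0.15) and the inducible sum in smooth muscle-like cells (0.065). After thinning they were that ratio in AT1-like (0.053) and pericyte-like cells (0.064) and Hspa1b in aerocyte-like (0.15) and pericyte-like cells (0.24). Hspb1 in NK-like cells also turned with a stricter gate (0.22), without cells of high doublet score (0.83) and without the top 1% of cells (0.13). The ratio in pericyte-like cells turned without high doublet scores (0.11), that in fibroblast-like cells with the moved lists (-0.38), and Hspa1b in pericyte-like cells with Leiden clusters (0.74). The cause was not tested. Subtracting free RNA left no ratio for Hspb1 in neutrophil-like, alveolar macrophage-like and T-like cells. The same held for Hspa1b, Hsph1 and Hspd1 in neutrophil-like cells. The doublet score followed Scrublet's scheme in an own implementation and removed 503 CM and 464 TCM cells. No paired analysis was possible because each group held 1 library, which also leaves no spread between animals, and genes with few UMIs, as in neutrophil-like CM cells, carry wide intervals.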
